A study of Homo sapiens with 24 samples.

Results

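The tissue kallikreins KLK5, KLK6, KLK7, KLK8, KLK10, KLK11 and KLK13 were followed in RWPE1 cells, an immortalized, non-tumorigenic line of human prostate epithelium, after exposure to 1,25(OH)2D, the active hormone made from vitamin D. All 12 probe sets whose array annotation gives only 1 of these 7 symbols were taken, out of 54613 probe sets (19775 genes) without the controls. Each of the 6 groups had 4 arrays: cultures were harvested 6, 24 and 48 h after addition of 1,25(OH)2D at 100 nM, or of the ethanol vehicle (0.1%) alone. The 48 h cultures had their medium replaced at 24 h. All groups share this 1 cell line, and the labels number the arrays of a group as biological replicates without saying whether they came from separate passages, so the p-values measure the spread between these cultures. Values are gcRMA intensities on the log2 scale, on which a difference of 1 is a 2-fold change, and every level and difference below is on that scale unless a fold is named.

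Tissue kallikreins are secreted serine proteases that are made as inactive precursors and encoded side by side on chromosome 19. In stratified epithelia several of them act as a cascade: KLK5, which cuts after basic residues, can activate itself and the precursors of other kallikreins, and KLK7, a chymotrypsin-like enzyme, digests the proteins that join the outermost cells. Kazal-type inhibitors of the SPINK family hold these enzymes in check. The prostate is better known for the androgen-driven family members of the luminal cell, KLK2 and KLK3 (prostate-specific antigen). The hormone acts through the vitamin D receptor, which binds DNA with a retinoid X receptor at pairs of hexamers set 3 bases apart.

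Promoter windows of 250 bases before an annotated start were found in RefSeq (GRCh38.p14) for 6 of the 7 genes, with 11 windows in all. The windows of the 3 genes whose values moved most are printed 5′ to 3′ on the gene's strand, the minus strand, so that the letters behind the motif counts can be read, and capitals mark every match on either strand.
KLK5, chr19:50953039-50953288: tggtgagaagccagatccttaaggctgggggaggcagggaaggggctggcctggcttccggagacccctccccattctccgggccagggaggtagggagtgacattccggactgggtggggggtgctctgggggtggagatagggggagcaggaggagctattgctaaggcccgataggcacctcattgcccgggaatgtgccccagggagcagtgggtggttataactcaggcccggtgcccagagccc
KLK6, chr19:50969592-50969841: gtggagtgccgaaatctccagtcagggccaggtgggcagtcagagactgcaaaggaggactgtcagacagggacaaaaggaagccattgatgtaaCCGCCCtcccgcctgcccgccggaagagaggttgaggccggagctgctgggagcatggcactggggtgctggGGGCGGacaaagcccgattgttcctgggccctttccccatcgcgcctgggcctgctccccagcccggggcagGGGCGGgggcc
KLK10, chr19:51019862-51020111: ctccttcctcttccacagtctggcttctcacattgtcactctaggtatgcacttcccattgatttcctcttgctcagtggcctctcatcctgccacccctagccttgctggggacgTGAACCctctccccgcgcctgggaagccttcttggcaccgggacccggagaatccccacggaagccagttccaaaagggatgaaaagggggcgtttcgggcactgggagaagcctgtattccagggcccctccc

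Both strands were searched for 8 motifs. Of the receptor hexamers, AGGTCA was present in 12.1% of all 35116 RefSeq windows of this length. The variant GGTTCA was present in 7.16% of them. The variant AGTTCA was present in 8.8% and the variant GGGTCA in 12.1%. Any pair of these 4 in the same direction 3 bases apart was present in 0.0655%. The AP-1 motif TGANTCA was present in 6.57%, the SP1 motif GGGCGG in 42.6% and the box TATAAA in 10.7%. The printed KLK5 window held none of the motifs. The KLK6 window held the SP1 motif at 3 places. The KLK10 window held the second hexamer on the opposite strand, from −134 to −129 relative to the start, and the window of the other KLK10 start held no match. Of the other windows not printed, only those of KLK13, whose values stayed low, held a receptor hexamer (GGGTCA in both, and AGGTCA in 1 of them). None of the 11 windows of the members held the pair of hexamers. A match is a string of letters and not a site shown to be bound, and the windows cover only these 250 bases.

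CYP24A1, the enzyme that breaks down 1,25(OH)2D, rose by 10.08 ± 0.142 (SE) after 6 h, by 6.10 ± 0.421 after 24 h and by 5.99 ± 0.214 after 48 h (limma adjusted p = 3.39e-08, 0.00222 and 4.75e-06). Its level ran from 8.90 to 13.9 in 1,25(OH)2D arrays and from 3.48 to 4.51 in vehicle arrays. The basal keratins KRT5 and KRT14 had group means between 15.3 and 16.2. Of the 6 luminal markers measured, KRT8 and KRT18 had group means between 12.6 and 14.5, whereas KLK2, ACP3 and TMPRSS2 stayed between 2.30 and 2.73 and KLK3 between 3.80 and 4.18. Of the markers of other cell types, the leukocyte list (PTPRC, CD3E, LYZ) averaged 2.65 to 3.06 with 1,25(OH)2D and 2.66 to 2.93 with vehicle, the endothelial list 2.87 to 3.27 with 1,25(OH)2D and 2.90 to 3.06 with vehicle, and the neuroendocrine list 2.44 to 2.70 and 2.46 to 2.56. Among the fibroblast and smooth muscle markers COL1A1 (group means 9.58 to 10.2) and ACTA2 (6.29 to 6.85) were bright while COL3A1, DCN and DES were near 3. The first component of the variation within groups took 71.9% of it, and 4 arrays stood apart on it: the 24 h 1,25(OH)2D replicates 1 and 4, and replicate 1 of vehicle at both 6 and 24 h. In bulk RNA a change in the number of expressing cells and a change in RNA per cell cannot be told apart.

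KLK6 and KLK10 rose early. At 6 h KLK6, a trypsin-like kallikrein abundant in brain, had values of 6.32, 4.54, 7.25 and 6.92 in 1,25(OH)2D arrays and 2.39, 2.20, 2.18 and 2.32 in vehicle arrays. KLK10, first described as a gene silenced in breast tumour cells, had (on the brighter of its 2 probe sets) 4.99, 4.64, 4.78 and 5.32 in 1,25(OH)2D arrays and 2.68, 2.64, 2.42 and 2.54 in vehicle arrays. For both genes every treated array lay far above every vehicle array, and the treated arrays of KLK6 spread much more (SD 1.21, n = 4) than those of KLK10 (SD 0.296, n = 4). The difference was 3.99 ± 0.525 (SE) for KLK6 and 2.36 ± 0.152 for KLK10 (limma adjusted p = 0.00515 and 0.00013). No fold is given for KLK5, KLK6 and KLK10, because their vehicle values lay below the array medians at every time. Both genes passed the filter on low values only through 1,25(OH)2D groups, so the p-values above carry that choice. With all probe sets fitted the limma adjusted p was 0.021 for KLK6 and 0.000533 for KLK10. The 95% interval in that fit was 2.68 to 5.29 for KLK6 and 2.01 to 2.70 for KLK10.

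The early rise did not last at that size. At 24 h KLK6 had 2.36, 3.63, 2.35 and 3.44 in 1,25(OH)2D arrays and 2.36, 2.18, 2.32 and 2.18 in vehicle arrays. KLK10 had 2.65, 3.29, 2.71 and 4.47 in 1,25(OH)2D arrays and 2.74, 2.62, 2.64 and 2.63 in vehicle arrays. In both genes treated replicates 2 and 4 stood above every vehicle array and treated replicates 1 and 3 lay in or close to the vehicle range. Neither difference passed the test, at 0.69 ± 0.314 for KLK6 and 0.62 ± 0.382 for KLK10 (adjusted p = 0.601 each). Without the 4 arrays that stood apart they were 0.76 and 0.37 (adjusted p = 0.205 and 0.195).

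At 48 h KLK6 passed the test and KLK10 did not, and the genes were not tested against each other. KLK6 had 5.09, 3.29, 3.34 and 3.43 in 1,25(OH)2D arrays and 2.17, 2.33, 2.36 and 2.24 in vehicle arrays, and it rose by 1.51 ± 0.382 (adjusted p = 0.0464). All treated KLK6 arrays lay above all vehicle arrays, with replicate 1 far above the other treated arrays. KLK10 had 3.85, 2.61, 2.64 and 2.65 in 1,25(OH)2D arrays and 2.61, 2.63, 2.63 and 2.56 in vehicle arrays. Its difference of 0.33 ± 0.267 (adjusted p = 0.556) came to 0.027 without treated replicate 1, and the other treated arrays lay at the vehicle values. Without that replicate KLK6 still differed by 1.08 (adjusted p = 0.000229). The KLK6 call at 48 h was lost under 11 of 18 alternatives. It was lost with all probe sets fitted (adjusted p = 0.14) and when any single vehicle array was left out (adjusted p 0.0955 to 0.109). It was lost without treated replicate 3 or 4 (0.0705 and 0.0771) and with all 24 arrays in a fit (0.075). An offset of 32 added on the linear scale brought the difference to 0.36 (adjusted p = 0.212). A second quantile normalization (0.0545) and a replicate block (0.087) also lost the call.

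**Figure D1:**
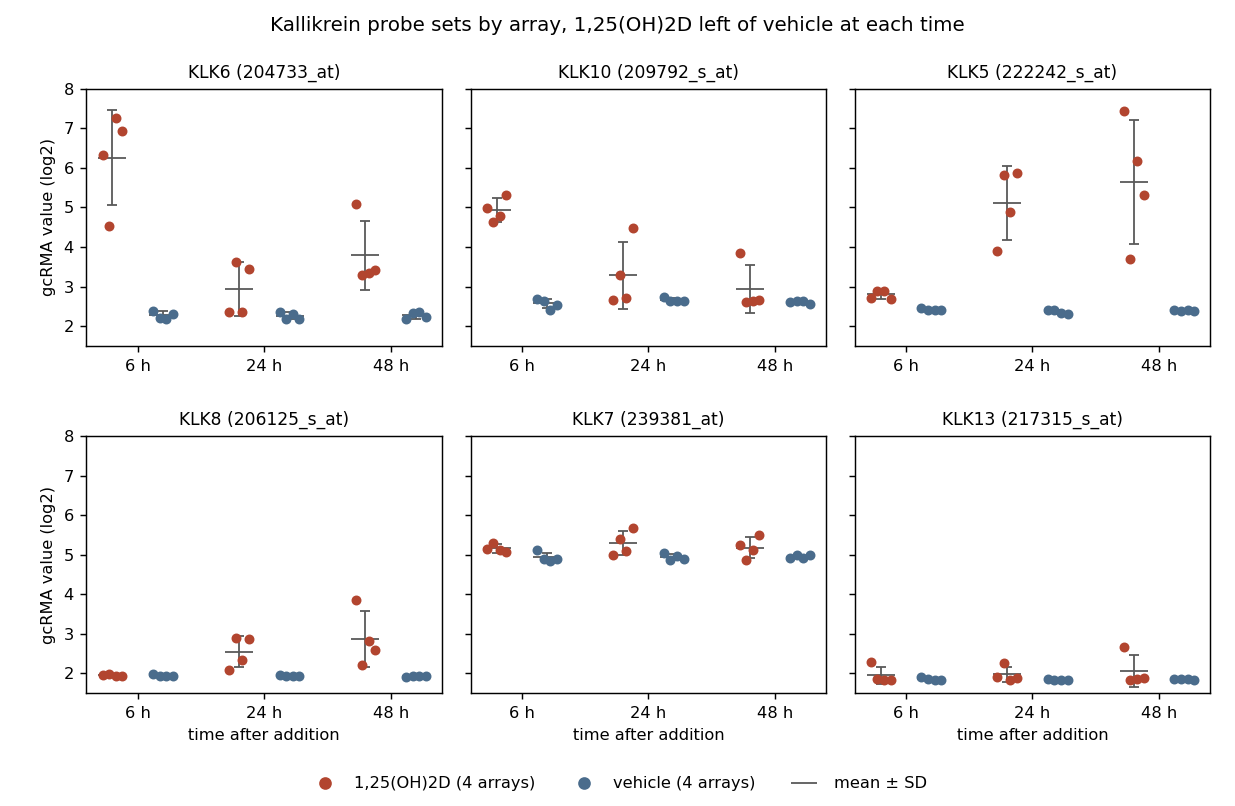
Values of 6 kallikrein probe sets by array (vertical axis, gcRMA log2) at 6, 24 and 48 h, with 1,25(OH)2D arrays left of vehicle arrays and bars at mean ± SD (n = 4). KLK6 and KLK10 are highest at 6 h, KLK5 and the KLK8 probe set are highest at 24 and 48 h, KLK7 lies between 4.85 and 5.68 in every array, and the vehicle arrays of the other genes stay at or below 2.74 throughout.

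KLK5 differed most at the later times. At 6 h its values were 2.72, 2.88, 2.90 and 2.70 in 1,25(OH)2D arrays and 2.46, 2.42, 2.41 and 2.41 in vehicle arrays. The groups did not overlap, and the small difference of 0.38 ± 0.0807 missed the threshold among the filtered probe sets (adjusted p = 0.0553) but passed it when all probe sets were fitted (adjusted p = 0.0215). At 24 h KLK5 had 3.90, 5.81, 4.87 and 5.88 in 1,25(OH)2D arrays and 2.41, 2.41, 2.33 and 2.31 in vehicle arrays. The groups were far apart, and the difference of 2.75 ± 0.421 missed the threshold (adjusted p = 0.0583). It stayed uncalled under 13 of 18 alternatives, among them the fit of all probe sets (adjusted p = 0.139). It was called without the 4 arrays that stood apart (2.99, adjusted p = 0.0127), without treated replicate 1 alone (3.16, adjusted p = 0.00983), with array weights, with SAM and in a fit of all 24 arrays (adjusted p = 0.00328), a fit in which the 6 h difference had an adjusted p of 1.

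At 48 h KLK5 had 7.43, 3.70, 6.16 and 5.32 in 1,25(OH)2D arrays and 2.41, 2.38, 2.40 and 2.39 in vehicle arrays. The treated arrays spread widely (SD 1.57, n = 4) and all lay above the vehicle arrays, which hardly differed (SD 0.011, n = 4). KLK5 rose by 3.26 ± 0.682 (adjusted p = 0.0229), and the call was lost with all probe sets fitted (adjusted p = 0.0765), with an offset of 32 added on the linear scale (0.119), when any single vehicle array was left out (adjusted p 0.0549 to 0.0632) and without treated replicate 3 or 4 (0.0693 and 0.0538).

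Whether the effect on each kallikrein differed between times was tested in a fit of all 24 arrays. No kallikrein was tested against another. Subtracting the 6 h effect from the later ones gave −3.30 ± 0.639 at 24 h and −2.48 ± 0.639 at 48 h for KLK6 (adjusted p = 0.00498 and 0.0378). KLK10 gave −1.74 ± 0.426 and −2.03 ± 0.426 for the same differences (adjusted p = 0.0333 and 0.00847). KLK5 went the other way, with 2.88 ± 0.709 between 48 and 6 h (adjusted p = 0.0278), while its 2.38 ± 0.709 between 24 and 6 h missed the threshold (adjusted p = 0.0993). With all probe sets fitted, 1 of the 12 kallikrein probe sets was called between 24 and 6 h (KLK6) and 1 between 48 and 6 h (KLK10), beside 0.826% and 1.12% of all probe sets. The other calls were lost there (adjusted p = 0.0763 for KLK10 between 24 and 6 h, and 0.0662 for KLK5 and 0.0884 for KLK6 between 48 and 6 h), and over all alternatives they were lost under 15 of 32, 11 of 32 and 17 of 33. Among probe sets that passed the filter, which KLK5, KLK6 and KLK10 did only through 1,25(OH)2D groups, 2.11% were called between 24 and 6 h and 2.79% between 48 and 6 h. Between 24 and 48 h limma called 0.0346% of them and no kallikrein. At an unadjusted p under 0.05 that count was 0 of 4, beside 4.03% of filtered probe sets, and 2 of 12 with all probe sets fitted, beside 2.56%.

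Vehicle cultures gave a flat baseline. No kallikrein probe set changed in vehicle between 6 and 48 h by limma, adjusted or at an unadjusted p under 0.05, beside 14.7% and 26.7% of all tested probe sets. The vehicle means of KLK5 were 2.42, 2.36 and 2.40 at 6, 24 and 48 h, those of KLK6 2.27, 2.26 and 2.27, and those of KLK10 2.57, 2.66 and 2.61. These values are at the low end of the arrays, whose medians ran from 3.02 to 3.2: in vehicle at 6 h 26.6%, 19.8% and 33.2% of all probe sets had a lower mean than KLK5, KLK6 and KLK10. With 1,25(OH)2D KLK6 stood above 71.9% of probe sets at 6 h and KLK5 above 69.3% at 48 h. An offset of 32 added on the linear scale brought the differences down to 1.64 for KLK6 and 0.72 for KLK10 at 6 h and to 1.29 for KLK5 at 48 h (adjusted p = 0.0604, 0.00213 and 0.119).

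Counted over probe sets, 2 of the 4 that passed the filter on low values were called higher at 6 h, 0 at 24 h and 2 at 48 h, beside 1.91%, 0.238% and 4.01% of all tested probe sets. KLK5, KLK6 and KLK10 passed that filter only through 1,25(OH)2D groups, so these counts carry the choice with them. With every probe set fitted, 3 of all 12 kallikrein probe sets were called higher at 6 h (KLK5, KLK6 and KLK10), 0 at 24 h and 0 at 48 h, beside 0.782%, 0.101% and 1.3% of all probe sets. At an unadjusted p under 0.05 the counts over the 12 were 4, 2 and 4 at 6, 24 and 48 h, beside 5.35%, 5.06% and 11.2% of all probe sets, and at 24 h it was 1 of the 4 that passed the filter, beside 8.57%. All 4 treated arrays lay above all vehicle arrays in 3 of the 12 probe sets at 6 h, 2 at 24 h and 3 at 48 h, beside 1.91%, 1.49% and 3.38% of all probe sets. No kallikrein probe set was called lower at any time. The median difference over the 12 was −0.00086, 0.18 and 0.21 at 6, 24 and 48 h, beside −0.023, 0.020 and −0.0051 over all probe sets.

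**Figure D2:**
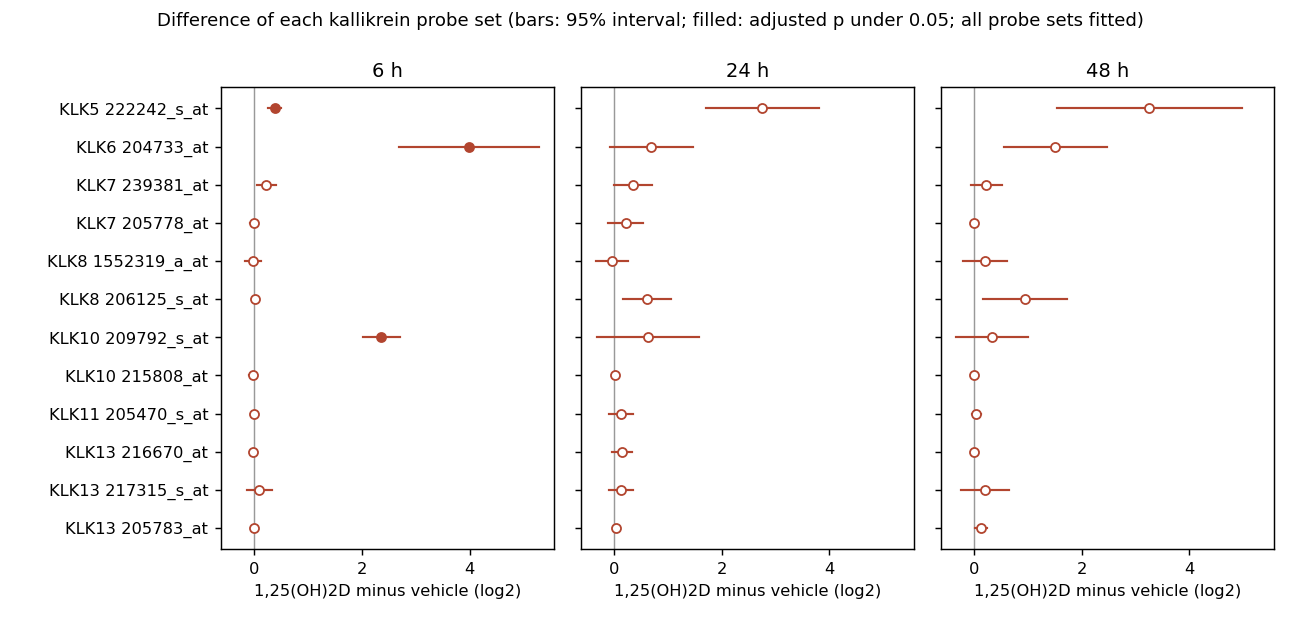
Difference between 1,25(OH)2D and vehicle arrays (horizontal axis, log2) for the 12 kallikrein probe sets at 6, 24 and 48 h, with all probe sets fitted. Bars are 95% intervals and filled points have an adjusted p under 0.05. KLK6 (3.99) and KLK10 (2.36) lead at 6 h, KLK5 leads at 24 h (2.75) and 48 h (3.26) with intervals that stay above 0, and the dimmer probe sets of KLK7 and KLK10 lie between −0.024 and 0.21.

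KLK8, a trypsin-like kallikrein of skin and brain, had 2 probe sets that disagreed. The brighter ran from 2.69 to 3.49 in 1,25(OH)2D arrays and from 2.70 to 3.21 in vehicle arrays, and the groups overlapped at each time. The dimmer had 1.95, 1.98, 1.93 and 1.93 in 1,25(OH)2D arrays at 6 h, within the vehicle range of 1.92 to 1.98. At 24 h it had 2.08, 2.90, 2.35 and 2.87 in 1,25(OH)2D arrays and 1.95, 1.93, 1.94 and 1.93 in vehicle arrays. At 48 h it had 3.87, 2.21, 2.83 and 2.60 in 1,25(OH)2D arrays and 1.92, 1.94, 1.95 and 1.93 in vehicle arrays. Every treated array was above every vehicle array at both late times, as for KLK5. Neither difference passed the test (0.61 ± 0.189 and 0.94 ± 0.329, adjusted p = 0.497 and 0.292, all probe sets fitted). Another probe set carries the symbols of both KLK9 and KLK8 and is no member. It differed by 0.20, 0.19 and 0.21 at 6, 24 and 48 h (adjusted p = 0.767, 0.601 and 0.304).

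KLK7, the chymotrypsin-like enzyme of the cascade, was the one member above the low range in every group. Its brighter probe set ran from 4.86 to 5.68 in 1,25(OH)2D arrays and from 4.85 to 5.11 in vehicle arrays. In time order its differences were 0.22 ± 0.0939, 0.35 ± 0.155 and 0.22 ± 0.119 (adjusted p = 0.504, 0.592 and 0.329), and the groups overlapped each time. The 95% intervals with all probe sets fitted reached 0.39, 0.71 and 0.51, so rises up to these sizes are within the error. The dimmer probe set stayed between 2.49 and 2.59 apart from 3.14 and 2.72 in treated replicates 2 and 4 at 24 h.

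KLK11 and KLK13, both trypsin-like and found in many glandular epithelia, stayed at the low end. KLK11 lay between 2.09 and 2.26 except for 2.53 in 1,25(OH)2D replicate 4 at 24 h, 1 of the arrays that stood apart. KLK13 had 3 probe sets with group means between 1.80 and 2.44. The middle one by mean level had single high treated arrays: 2.28 in replicate 1 at 6 h, 2.26 in replicate 2 at 24 h and 2.67 in replicate 1 at 48 h, beside 1.84 to 1.90 in all vehicle arrays. The differences of KLK11 and KLK13 ran from −0.019 to 0.21, and none passed the test. The dimmer KLK10 probe set also stayed low, between 1.94 and 2.07 in all 24 arrays, and its 6 h difference was −0.024. Kallikreins resemble each other in sequence and the suffix _s_at marks probe sets whose probes match several transcripts, so signal from a related transcript was not tested.

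The same treated cultures were high for several kallikreins. At 48 h 1,25(OH)2D replicate 1 was the highest and replicate 2 the lowest treated array for KLK5, KLK6, KLK10, the dimmer KLK8 probe set and the middle KLK13 probe set. Relative to the vehicle mean, replicate 1 stood at 5.03 for KLK5, 2.81 for KLK6, 1.93 for KLK8 and 1.24 for KLK10, and replicate 2 at 1.30, 1.01, 0.27 and 0.0060. At 24 h replicates 2 and 4 exceeded replicates 1 and 3 for KLK5, KLK6, KLK8 and KLK10. Treated replicates 1 and 4 at 24 h are the opposite ends of the component on which arrays stood apart over all probe sets (0.413 and −0.544, with −0.02 for replicate 2 and 0.151 for replicate 3), and replicate 4 was also highest for the mean of the other tissue kallikreins (3.46, beside 3.02 to 3.09 in the other treated arrays), of the leukocyte markers (3.06, beside 2.71 to 2.79) and of the fibroblast and smooth muscle markers (5.57, beside 5.05 to 5.26). At 48 h treated replicates 1 and 2 were also the ends of that component among treated arrays, in a narrower range (−0.0555 and 0.0737). There replicate 1 was also highest and replicate 2 lowest for the mean of the other tissue kallikreins (3.09 and 3.01). The same held for the luminal (6.65 and 6.35) and the fibroblast and smooth muscle markers (5.09 and 4.89). The endothelial and leukocyte means had another highest array. The part of this component in the kallikrein values was not tested. At 6 h no such shared order appeared: replicate 3 was highest for KLK6 and KLK5, and replicate 4 for KLK10. Over deviations from the group means of all 24 arrays the Pearson correlation was 0.66 between KLK6 and KLK10, 0.66 between KLK5 and KLK10 and 0.53 between KLK5 and KLK6. KLK7, whose differences did not pass the test, had 0.57 with KLK5, 0.56 with KLK10 and 0.18 with KLK6. These values are a description over points that share arrays.

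**Figure D3:**
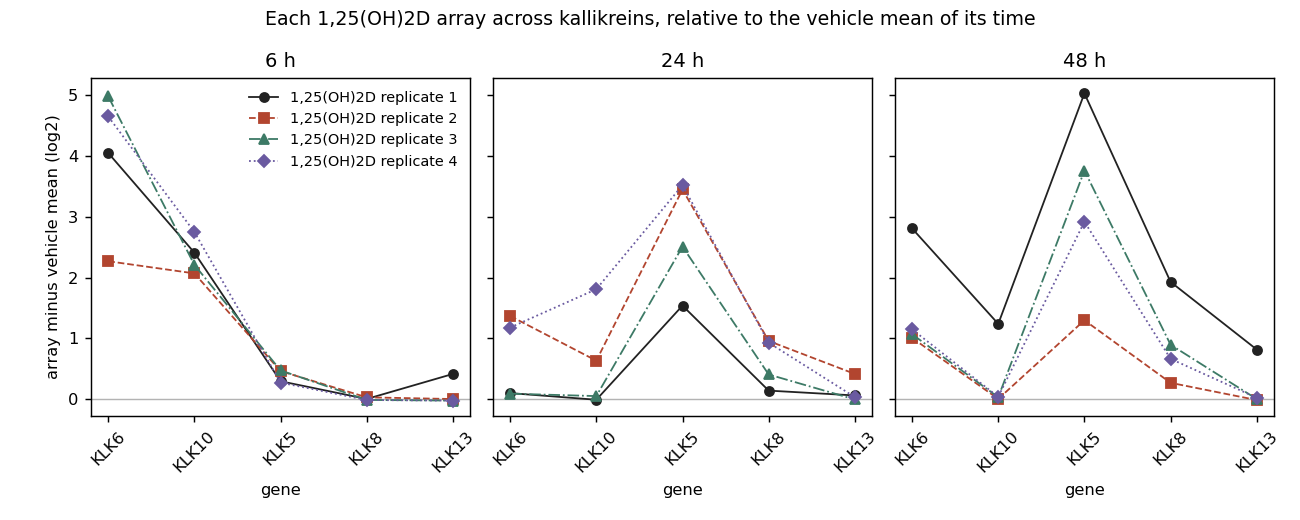
Each 1,25(OH)2D array (1 line a replicate) as its value minus the vehicle mean of its time (vertical axis, log2) for KLK6, KLK10, KLK5, KLK8 (dimmer probe set) and KLK13 (middle probe set) at 6, 24 and 48 h. At 48 h replicate 1 lies above the other replicates for all 5 genes, from 5.03 for KLK5 to 0.82 for KLK13, and at 24 h replicates 2 and 4 lie above replicates 1 and 3 for the first 4 genes.

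Markers of squamous differentiation followed a like order among the treated arrays. SPRR1B, a precursor of the cornified envelope, had 9.07, 9.88, 9.56 and 10.3 in 1,25(OH)2D arrays at 24 h and 8.77, 8.16, 7.97 and 7.94 in vehicle arrays. At 48 h it had 10.1, 9.37, 9.76 and 9.78 in 1,25(OH)2D arrays and 8.08, 8.06, 7.60 and 7.99 in vehicle arrays. The treated order at 24 h, replicate 4 above 2, 3 and 1, was that of KLK5 and also that of the array-wide component. At 48 h replicate 1 was again highest and replicate 2 lowest, also the ends of that component among the treated arrays of that time. Of 5 tested genes of this list, KRT13, a keratin of stratified epithelium, rose by 1.80 at 6 h and by 0.88 at 48 h (adjusted p = 0.0286 and 0.0438), and SPRR1A and SPRR1B rose at 48 h (1.28 and 1.82, adjusted p = 0.0142 and 0.000497). TGM1, the transglutaminase that crosslinks the envelope, fell by 1.06 at 48 h (adjusted p = 0.00833), KRT10 did not pass the test, and IVL, LORICRIN, KRT1 and CALML5 failed the filter. The list averaged 5.53 to 6.64 over single 1,25(OH)2D arrays and 5.46 to 6.21 over vehicle arrays, and its part in the kallikrein values was not tested.

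The rest of the family gave no call. The 7 other kallikreins with a probe set of their own (KLK1, KLK2, KLK3, KLK4, KLK12, KLK14 and KLK15) had 21 probe sets, of which 3 passed the filter. None of the 21 was called at any time, and in none did all treated arrays lie above or below all vehicle arrays. Their differences ran from −0.12 to 0.038 after 6 h, −0.027 to 0.26 after 24 h and −0.038 to 0.078 after 48 h. KLK3 had means of 3.81, 4.18 and 3.87 in the successive 1,25(OH)2D groups and 3.93, 3.92 and 3.80 in the vehicle groups. Along the chromosome KLK5, KLK6, KLK7 and KLK8 are neighbours and KLK10 follows after KLK9. KLK6 and KLK10, whose differences were largest at 6 h, are thus separated by KLK7, KLK8 and KLK9. KLK5, whose difference was largest at 48 h, lies beside KLK6.

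**Figure D4:**
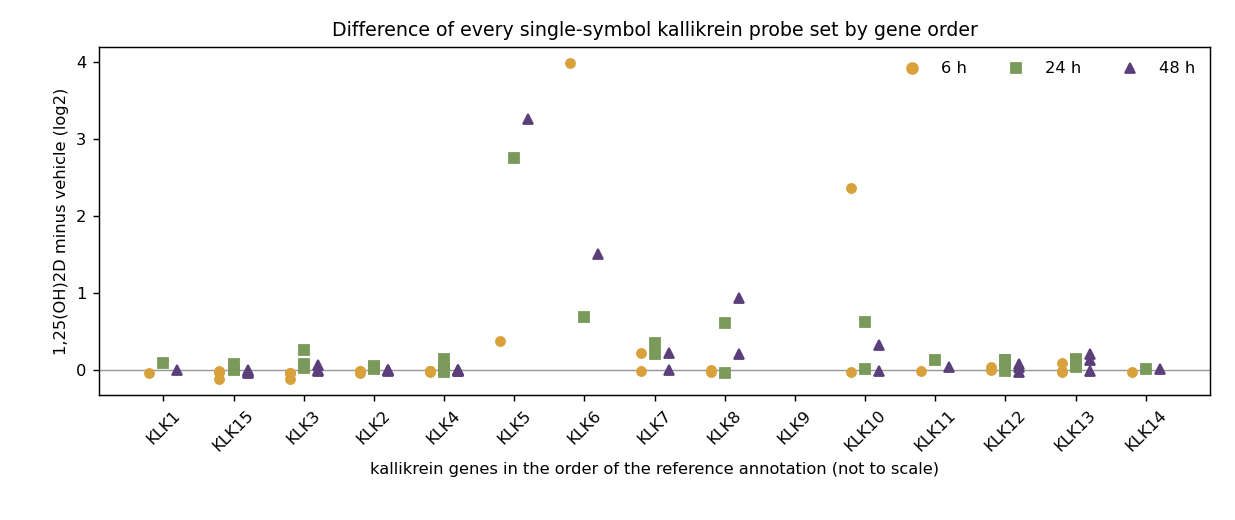
Difference between 1,25(OH)2D and vehicle (vertical axis, log2) at 6, 24 and 48 h for every single-symbol probe set of the kallikreins, which run along the horizontal axis in the order of the reference annotation, not to scale. Values above 0.5 are found for KLK5, KLK6, KLK8 and KLK10, and the flanking genes from KLK1 to KLK4 and from KLK11 to KLK14 stay between −0.12 and 0.26. KLK9 was not analysed here.

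SPINK6 was the 1 gene of the inhibitor list that passed the test. This Kazal-type inhibitor of KLK5 and other kallikreins had 6.33, 6.96, 6.34 and 5.88 in 1,25(OH)2D arrays at 48 h and 8.42, 8.48, 8.49 and 8.86 in vehicle arrays. It fell by 2.18 ± 0.214 (adjusted p = 0.000745), and at 24 h, with 5.82, 6.83, 6.38 and 6.55 in 1,25(OH)2D arrays and 7.49, 8.29, 8.01 and 7.78 in vehicle arrays, the difference of −1.50 ± 0.25 missed the threshold (adjusted p = 0.0729). At 6 h it was 0.12 ± 0.195 (adjusted p = 1). The groups were apart at 24 and 48 h, the times at which KLK5 was high. SPINK6 was 1 of 2 tested genes among the 6 inhibitors measured. Probe sets called lower were 0.115% of all tested at 24 h and 5.61% at 48 h.

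CAMP, the precursor of the antimicrobial peptide LL-37 that KLK5 and KLK7 process in skin, rose at 48 h. At 48 h it had 6.19, 4.64, 6.27 and 5.78 in 1,25(OH)2D arrays and 2.91, 2.81, 2.91 and 2.90 in vehicle arrays, a rise of 2.84 ± 0.329 (adjusted p = 0.00167). Replicate 2 was the lowest treated array here too. At 24 h the difference was 1.27 ± 0.428 (adjusted p = 0.456) and at 6 h 0.11 ± 0.124 (adjusted p = 1). Of the 6 tested genes of the substrate list, FN1 (fibronectin) fell by 1.00 at 24 h and by 1.12 at 48 h (adjusted p = 0.0281 and 0.00202), and IL1B, whose precursor KLK7 can cut, rose by 0.86 at 6 h (adjusted p = 0.00325). The desmosome genes CDSN, DSC1 and DSG1 failed the filter, and DSG2, CDH1 and FLG did not pass the test.

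ST14 (matriptase), a membrane protease that can activate kallikrein precursors, rose by 0.26 ± 0.0526 at 48 h (adjusted p = 0.0206), with 8.47, 8.49, 8.51 and 8.39 in 1,25(OH)2D arrays and 8.25, 8.23, 8.09 and 8.26 in vehicle arrays. PRSS8 (prostasin) and the matriptase inhibitors SPINT1 and SPINT2 were bright, with group means between 9.25 and 13.4, and passed the test at no time. Among the basal markers KRT15 fell by 1.92 and ITGB4 by 0.37 at 48 h (adjusted p = 9.5e-05 and 0.0415), while KRT5 and KRT14 did not pass the test.

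**Figure D5:**
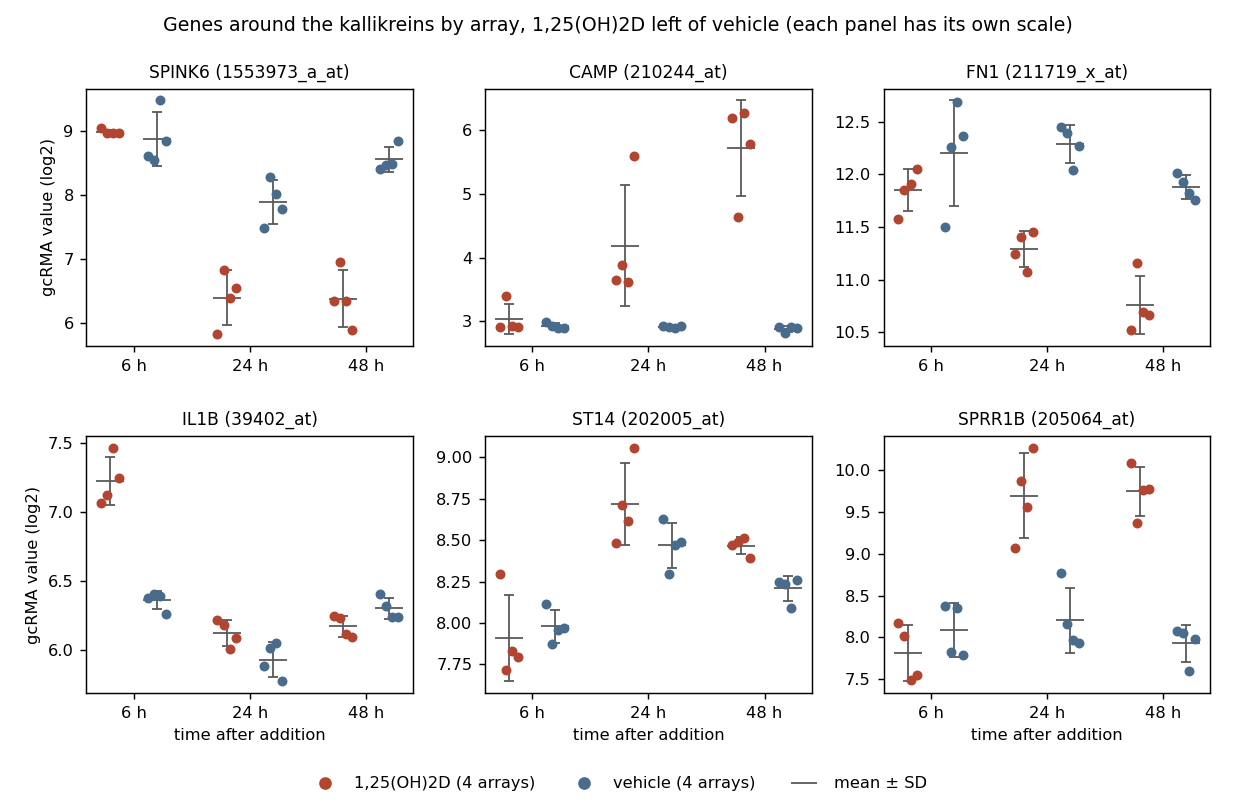
Values by array (vertical axis, gcRMA log2, own scale in each panel) of SPINK6, CAMP, FN1, IL1B, ST14 and SPRR1B at 6, 24 and 48 h, with 1,25(OH)2D left of vehicle and bars at mean ± SD (n = 4). SPINK6 is lower with 1,25(OH)2D at 24 and 48 h (means 6.39 and 6.38, against 7.89 and 8.56 with vehicle), and CAMP is higher at 48 h (5.72 against 2.88).

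The genes most like each kallikrein were taken as those with the highest Pearson correlation over the 24 arrays, among 12020 genes, as a description. For KLK5 they were TSPAN1 (r = 0.935), CAMP (0.909) and SFTPD (0.906). TSPAN1, a tetraspanin, differed by 2.58 at 24 h and 2.85 at 48 h (adjusted p = 0.00944 and 0.000356), with means of 7.68 and 8.40 with 1,25(OH)2D and 5.09 and 5.56 with vehicle. For KLK6 they were SERPINB1 (0.921), CHST11 (0.920) and LAMB3 (0.916), which differed by 2.73, 2.47 and 1.78 at 6 h (adjusted p = 0.000127, 0.000247 and 0.000151). For KLK10 they were RHOF (0.927), LMCD1 (0.923) and TWIST2 (0.922), which differed by 2.79, 2.58 and 1.11 at 6 h (adjusted p = 0.000103, 0.000331 and 0.00672). For KLK7 they were EPS8L2, CD151 and ADCK5 (0.863 to 0.892). All these genes were picked for following the same arrays, so their differences between groups carry that choice. Over deviations from the group means r was 0.577 to 0.724 for the genes of KLK5 and 0.23 to 0.402 for those of KLK6. It was 0.563 to 0.63 for those of KLK10 and 0.808 to 0.841 for those of KLK7. Between the members themselves r was 0.906 for KLK6 and KLK10, 0.214 for KLK5 and KLK6 and 0.154 for KLK5 and KLK10 over the same arrays. KLK7 had 0.676 with KLK5, 0.497 with KLK10 and 0.371 with KLK6.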

How the data were processed

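RWPE1 RNA was hybridised to Affymetrix U133 Plus 2.0 arrays (24 arrays, 6 groups). The authors corrected background, normalized all 24 arrays together and summarised probe sets with gcRMA (version not given in the sources used here); the deposited values are log2 intensities, and no further normalization was applied. The 62 control probe sets were left out. Of the other 54613, 41091 carry 1 symbol, 1801 several and 11721 none. A probe set was tested if 3 of 4 arrays of at least 1 group reached 3.2, a level chosen to keep about as many probe sets as the present-call filter of the methods, which left 26036, among them 4 of the 12 kallikrein probe sets. Present calls were not used here.

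Each time was fitted on its own 8 arrays, 1,25(OH)2D minus vehicle, using limma's lmFit and eBayes (version 3.58.1, R 4.3.3). Calls needed an adjusted p under 0.05 (Benjamini-Hochberg over all tested probe sets). Fits without the filter are named as "all probe sets fitted". Contrasts between times used a single model of the 24 arrays with 1 mean per group. Arrays have no depth: their number limits the precision, and the mean SD within groups was 0.259, 0.398 and 0.161 with 1,25(OH)2D and 0.272, 0.253 and 0.119 with vehicle (6, 24 and 48 h). The probe set with the highest mean over all arrays stands for a gene outside the kallikreins. Every kallikrein probe set is named; of the gene lists, genes past the test are named with values; the 3 genes most correlated with each tested kallikrein are named. Members and lists were chosen with earlier results of these data known. Alternatives were other normalizations, offsets, filters and fits, SAM re-implemented at a 5% false discovery rate over 70 relabellings, a replicate block, and leaving out arrays. The scripts were tested on simulated data. Promoters and motifs were read with Python 3.11.15, and figures drawn with matplotlib 3.10.9.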

Additional observations from a re-analysis of the deposited data

Results flagged for a closer look

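Among probe sets that passed the filter, the effect of 1,25(OH)2D differed between times by the test of the difference itself in 5 cases. These were KLK6 at 24 h minus 6 h (−3.30) and at 48 h minus 6 h (−2.48), KLK10 at 24 h minus 6 h (−1.74) and at 48 h minus 6 h (−2.03), and KLK5 at 48 h minus 6 h (2.88). These genes passed the filter only through 1,25(OH)2D groups. With all probe sets fitted, KLK6 at 24 h minus 6 h and KLK10 at 48 h minus 6 h kept their calls (limma adjusted p = 0.0136 and 0.0216). The other calls were lost there (adjusted p = 0.0763 for KLK10, 0.0662 for KLK5 and 0.0884 for KLK6).

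A single array lay apart from the other 3 of its group in 15 of the 72 sets of 4 values (12 probe sets in 6 groups). The rule was a gap, as a share of the range, above Dixon's limit for 4 values, however small the gap itself. That limit is passed by about 1 in 20 independent sets of normal values. These sets share arrays, so the count cannot be tested against that rate. In 1,25(OH)2D groups these were KLK6 at 48 h (replicate 1, 5.09 beside 3.29 to 3.43), the brighter KLK10 probe set at 48 h (replicate 1, 3.85 beside 2.61 to 2.65), KLK11 at 24 h (replicate 4, 2.53 beside 2.12 to 2.17), and the middle KLK13 probe set at 6 h (replicate 1, 2.28), at 24 h (replicate 2, 2.26) and at 48 h (replicate 1, 2.67), beside 1.84 to 1.91 in the other arrays of those groups.

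In vehicle groups the distances were smaller. The brighter KLK8 probe set stood at 2.98, 3.21 and 2.87 in replicate 1 at 6, 24 and 48 h, beside 2.70 to 2.77 in the other vehicle arrays. Vehicle replicate 1 at 24 h, 1 of the arrays that stood apart over all probe sets, was also highest for the dimmer KLK7 probe set (2.57), the brighter KLK10 probe set (2.74), the brightest KLK13 probe set (2.32), the middle KLK13 probe set (1.86) and the dimmest KLK13 probe set (1.82). Vehicle replicate 4 at 48 h was lowest for the middle KLK13 probe set (1.84).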

How the results depend on the processing

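The count of kallikrein probe sets called at 6 h (2) was 1 with an offset of 32 and with the stricter filter of 6, 3 after a second quantile normalization, with no filter, with trend and robust options and with SAM, and 4 with array weights; leaving out single arrays gave 2 throughout. At 24 h (0) it was 2 with array weights, 1 with all 24 arrays in a fit, with SAM and without the 4 arrays that stood apart, and 0 to 1 without single arrays. At 48 h (2) it was 1 after a second quantile normalization, with the stricter filter and with all 24 arrays in a fit, 0 with the offset and with no filter, and 0 to 2 without single arrays. The count of effects that differed between 48 and 6 h (3) was 1 with no filter and with the stricter filter, 2 with median centring and with the offset, and 1 to 3 without single arrays. The stricter filter left only KLK6 to test among the kallikreins, so its lower counts are not lost calls. KLK6 kept its calls there (limma adjusted p = 0.00285 at 6 h, 0.0193 at 48 h and 0.0287 for 48 h minus 6 h). The count changed in vehicle stayed 0 under every alternative run, each a fit that gives all groups a common spread.

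With the replicate number as a block the counts were 1 at 48 h (KLK6 lost, adjusted p = 0.087) and 1 for 48 h minus 6 h (KLK5 and KLK6 lost, 0.0546 and 0.0615), and the other counts kept their values. The correlation of same-numbered arrays' deviations ran from −0.889 to 0.756. At 6 h it was 0.756, −0.366, 0.588 and 0.67 for replicates 1 to 4. Such mixed values cannot settle whether the numbers pair the cultures, and the labels do not say.

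KLK10 at 6 h kept its call under all 18 alternatives on its probe set, and KLK6 at 6 h under 18 of 19. KLK7 at 6 h and KLK10 at 6 and 48 h turned sign on the dimmer probe set (−0.012, −0.024 and −0.0079). The difference of KLK10 between 24 and 6 h lost its call under 15 of 32 alternatives (adjusted p 0.0513 to 0.171 there), that of KLK5 between 48 and 6 h under 11 of 32 (0.0509 to 0.151) and that of KLK6 under 17 of 33 (0.0528 to 0.0956). These causes were not tested. KLK8, KLK11 and KLK13 failed the filter, so alternatives were run for the dimmer KLK8 probe set alone, where only array weights at 48 h gave a call (adjusted p = 0.00414).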
